A study of Mus musculus with 6 samples.

Results

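The genes described here are 42 mouse genes of the lysosome and of autophagy, taken by symbol from a list that was chosen by function. Earlier results of these data were known when the list was chosen. All 42 symbols were found among the 24421 gene symbols of the count tables, and all 42 had enough counts to be tested. They comprise 12 proteases (the cathepsins, *Lgmn* and *Tpp1*), 11 other hydrolases and hydrolase activators, 5 lysosomal membrane proteins, 4 subunits of the proton pump, the 2 transcription factors *Tfeb* and *Tfe3*, and 8 genes of the autophagy machinery. Reads were counted in 6 RNA-Seq libraries from 3T3-L1 cells, an established mouse line of preadipocytes that differentiates into adipocytes in culture and for which the labels give the strain C57BL/6. Every culture had been induced 2 days after confluency with a cocktail of 10% CS, 870 nM insulin, 5 µM TZD, 1 µM Dex and 500 µM IBMX, and from day 3 received the cocktail without IBMX and Dex. On day 7 the adipocytes were infected with 100 pfu/cell of an adenovirus, which carried *LacZ* in the control group (AdLacZ, 3 libraries) and *Lmo3*, a LIM-domain transcriptional cofactor, in the other group (Ad*Lmo3*, 3 libraries). RNA was taken 72 h later, and the 3 libraries of a group came from separate infections of this cell line. No uninfected culture was analysed here, so that both groups carried adenovirus.

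Lysosomes are acidic organelles in which proteins, glycans, lipids and nucleic acids are taken apart by hydrolases. A proton pump in the lysosomal membrane, the V-type ATPase, sets the acidity at which these enzymes work, and autophagy delivers cytoplasm to them in double-membrane vesicles. In adipocytes the pathway takes part in the turnover of lipid droplets and mitochondria. The transcription factors TFEB and TFE3 are known to bind an E-box in the promoters of many lysosomal genes when lysosomes are stressed or nutrients are scarce.

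To show the sequences on which that knowledge bears, the promoters of the listed genes were searched for the E-box CACGTG and for its longer form TCACGTGA, which contains it. Both motifs read the same on either strand. A RefSeq window (GRCm38.p6, from 250 bases before to 50 bases after a start site) was matched for 37 of the 42 genes. CACGTG was present in a window of 15 of these 37 genes (40.5%), whereas it was present for 2187 of all 27025 genes with a window (8.09%). By windows of equal length, 15 of 43 windows of the listed genes (34.9%) and 2349 of all 32851 windows (7.15%) held it. TCACGTGA was present in 6 of the 43 windows (14%) and in 0.974% of all windows. Such matches describe letters and are no evidence of binding. *Ctsa*, *Ctsd*, *Mcoln1*, *Lamp1* and *Gla* each had at least 2 copies of CACGTG in a window. Their sequences are shown 5′ to 3′ on the strand of the gene, with CACGTG, or TCACGTGA where it is complete, in capitals. For *Lamp1*, *Mcoln1* and *Ctsd* the upstream bases outside annotated exons are given.
Lamp1, chr8:13158911-13159160, plus strand: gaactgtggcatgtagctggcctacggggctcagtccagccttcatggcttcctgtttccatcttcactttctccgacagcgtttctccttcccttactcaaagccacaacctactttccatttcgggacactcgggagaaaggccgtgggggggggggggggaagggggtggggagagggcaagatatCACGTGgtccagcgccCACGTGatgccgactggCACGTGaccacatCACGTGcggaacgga
Mcoln1, chr8:3500269-3500456, plus strand: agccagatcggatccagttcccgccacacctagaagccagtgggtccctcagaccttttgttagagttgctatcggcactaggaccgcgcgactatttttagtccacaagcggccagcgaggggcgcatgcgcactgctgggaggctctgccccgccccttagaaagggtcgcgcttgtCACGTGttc
Ctsd, chr7:142388039-142388077, minus strand: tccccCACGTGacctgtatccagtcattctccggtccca
The remaining copies in these genes overlapped annotated exons and are given as stretches of 30 bases.
Ctsa, chr2:164833757-164833786, plus strand: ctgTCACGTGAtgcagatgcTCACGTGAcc
Ctsd, chr7:142387908-142387937, minus strand: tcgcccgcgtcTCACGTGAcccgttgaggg
Mcoln1, chr8:3500462-3500491, plus strand: aggcgccccgcTCACGTGAccgcggcgcat
Gla, chrX:134601215-134601244, minus strand: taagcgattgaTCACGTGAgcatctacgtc
Gla, chrX:134601182-134601211, minus strand: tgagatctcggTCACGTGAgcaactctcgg

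The libraries held 28035600 to 38332300 counts on genes, and the listed genes took 1.19% to 1.32% of them in AdLacZ and 1.15% to 1.17% in Ad*Lmo3* libraries. *Lmo3* itself had 0 counts in all 6 libraries, where 3 counts would correspond to 0.0768 to 0.111 CPM (counting error only). The methods describe the viral *Lmo3* as codon-optimized, so this gene could not check the labels. Of 12 adipocyte markers, 9 were higher in Ad*Lmo3* libraries at an adjusted p under 0.05 (edgeR), beside 2.71% of all tested genes. The summed level of all 12 ran from 20684 to 22856 CPM across the control libraries and from 28139 to 33981 CPM with Ad*Lmo3*. *Adipoq* averaged 1805 ± 86.8 CPM with AdLacZ and 3749 ± 680.0 CPM with Ad*Lmo3*, and *Fabp4* had 3467 ± 235 and 5312 ± 557 CPM (SD, n = 3 each). None of 9 preadipocyte markers passed the test in edgeR, DESeq2 or limma voom. Beside 20.6% of all tested genes, 0 of these markers had an unadjusted p under 0.05 (edgeR). Their summed levels were 5841 to 8105 CPM with AdLacZ and 6140 to 9270 CPM with Ad*Lmo3*. Of their log2 fold changes 7 were above and 2 below 0, with a median of 0.16. *Pdgfra*, which was among those below 0, had 189 ± 36.7 and 182 ± 27.3 CPM. Macrophages are rich in lysosomal enzymes, and of their markers *Tyrobp* had 0 counts in all 6 libraries. *Cd14* had 8.13 to 12.5 CPM and made up most of the list's sum, and *Cd68* had 1.48 to 4.17 CPM. *Ptprc* had 1 count in AdLacZ replicate 2 and 0 in the other libraries, *Csf1r* had 0.410 to 0.810 CPM, *Lyz2* had 0.923 to 1.88 CPM, and the 12 macrophage markers summed to 16.4 to 17.8 CPM with AdLacZ and to 13.4 to 15.8 CPM with Ad*Lmo3*. Markers of endothelial cells (4 genes) summed to at most 2.38 CPM in any library.

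Per kilobase of exon, the highest mean of the 42 genes in AdLacZ libraries was that of *Psap* with 601 ± 71.4 CPM per kb (SD, n = 3). It encodes prosaposin, the precursor of activator proteins for the breakdown of sphingolipids. *Lamp1*, the main glycoprotein of the lysosomal membrane, stood at 490 ± 50.3 CPM per kb. The aspartic protease *Ctsd* followed at 465 ± 32.7 CPM per kb, and the libraries of *Lamp1* overlapped with those of both *Psap* and *Ctsd*, so that first place was not resolved. The autophagy receptor *Sqstm1* came next with 318 ± 10.6 CPM per kb. At the lower end, the transcription factor *Tfeb* had 2.87 ± 0.188 CPM per kb. The dipeptidyl peptidase *Ctsc* reached 0.799 ± 0.0343 CPM per kb and the aminopeptidase *Ctsh* 0.0799 ± 0.0120 CPM per kb. The median gene stood at 27.2 CPM per kb, and 26 of the 41 pairs of neighbours in this order had overlapping AdLacZ libraries. The order was clear between the ends of the range and mostly unresolved between neighbours.

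**Figure D1:**
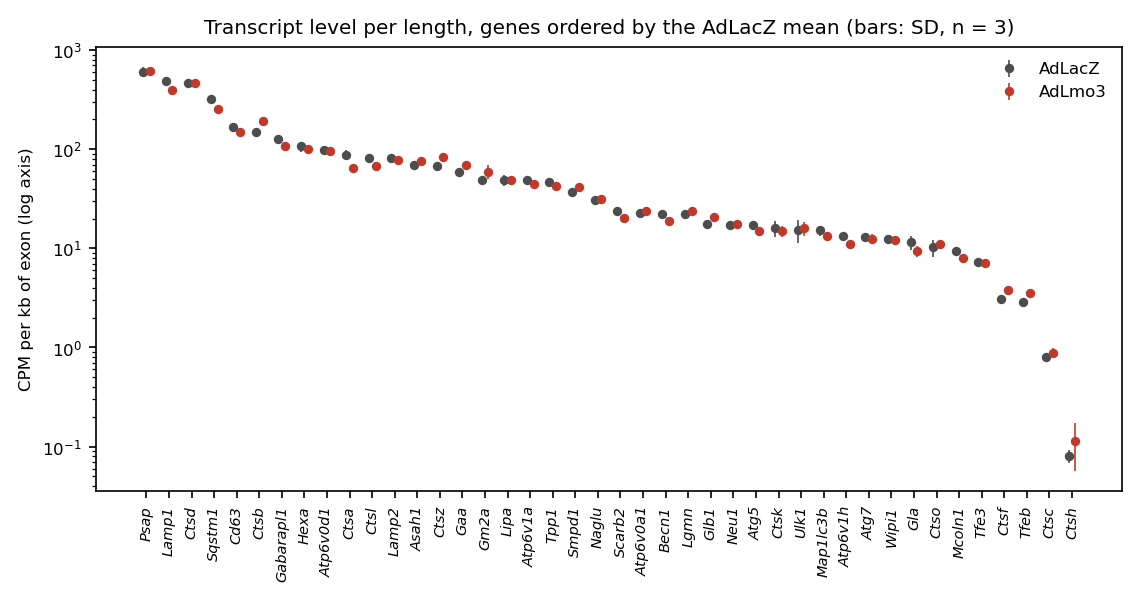
Mean level of each of the 42 genes in CPM per kb of exon (log axis) in AdLacZ (grey) and Ad*Lmo3* (red) libraries, ordered by the AdLacZ mean, with bars for the SD of 3 libraries. Levels ran from 0.0799 for *Ctsh* to 601 for *Psap* in AdLacZ libraries, and most red and grey points lie close together.

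The comparison asked which of these genes differed in level 3 days after infection between Ad*Lmo3* and AdLacZ adipocytes. *Ctsa*, the gene of the serine carboxypeptidase cathepsin A, was the only 1 of the 42 that passed the test (edgeR's quasi-likelihood test, Benjamini-Hochberg adjusted p under 0.05), and it was lower in Ad*Lmo3* libraries. That is 2.38% of the list, beside 4.28% of all 12766 tested genes (2.71% higher and 1.57% lower in Ad*Lmo3*). The share depended on the tool and the scaling. DESeq2 called 10 of the 42 genes (23.8%, 4 higher and 6 lower) beside 8.55% of all genes, edgeR with library totals 4 (9.52%, all lower) beside 6.01%, limma voom 2 (*Ctsa* and *Sqstm1*) beside 4.4%, and edgeR with a replicate block 0 beside 3.9%. The median log2 fold change of the 42 genes was -0.03, and that of all tested genes was 0.00. Log2 fold changes ran from -0.44 (*Ctsa*) to 0.50 (*Ctsh*), with 19 above and 23 below 0. The 95% interval of the fold change lay within 1.5-fold in either direction for 38 of the 42 genes, the exceptions being *Ctsa*, *Ctsb*, *Ctsh* and *Gla*.

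Below that threshold, separation between the groups was counted in further ways. An unadjusted p under 0.05 was reached by 17 of the 42 genes (40.5%, 8 higher and 9 lower), beside 20.6% of all tested genes. The 3 libraries of each group did not overlap for 18 genes (42.9%), of which 7 were higher and 11 lower in Ad*Lmo3*, beside 26.5% of all tested genes (13.3% higher and 13.2% lower). With library totals in place of TMM factors the split was 6 higher and 15 lower, beside 8.17% and 22.5% of all genes, and the split of all called genes was 266 higher and 501 lower instead of 346 and 201. The genes' replicate spread was also tighter, with a median standard error of 0.0856 on the log2 scale against 0.0981 over all tested genes, and its part in these shares was not tested. In RNA from whole cultures, a lower level per cell cannot be told apart from fewer cells that express the gene. The adipocyte markers were higher in the same libraries, and their part in the values of these genes was not tested.

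**Figure D2:**
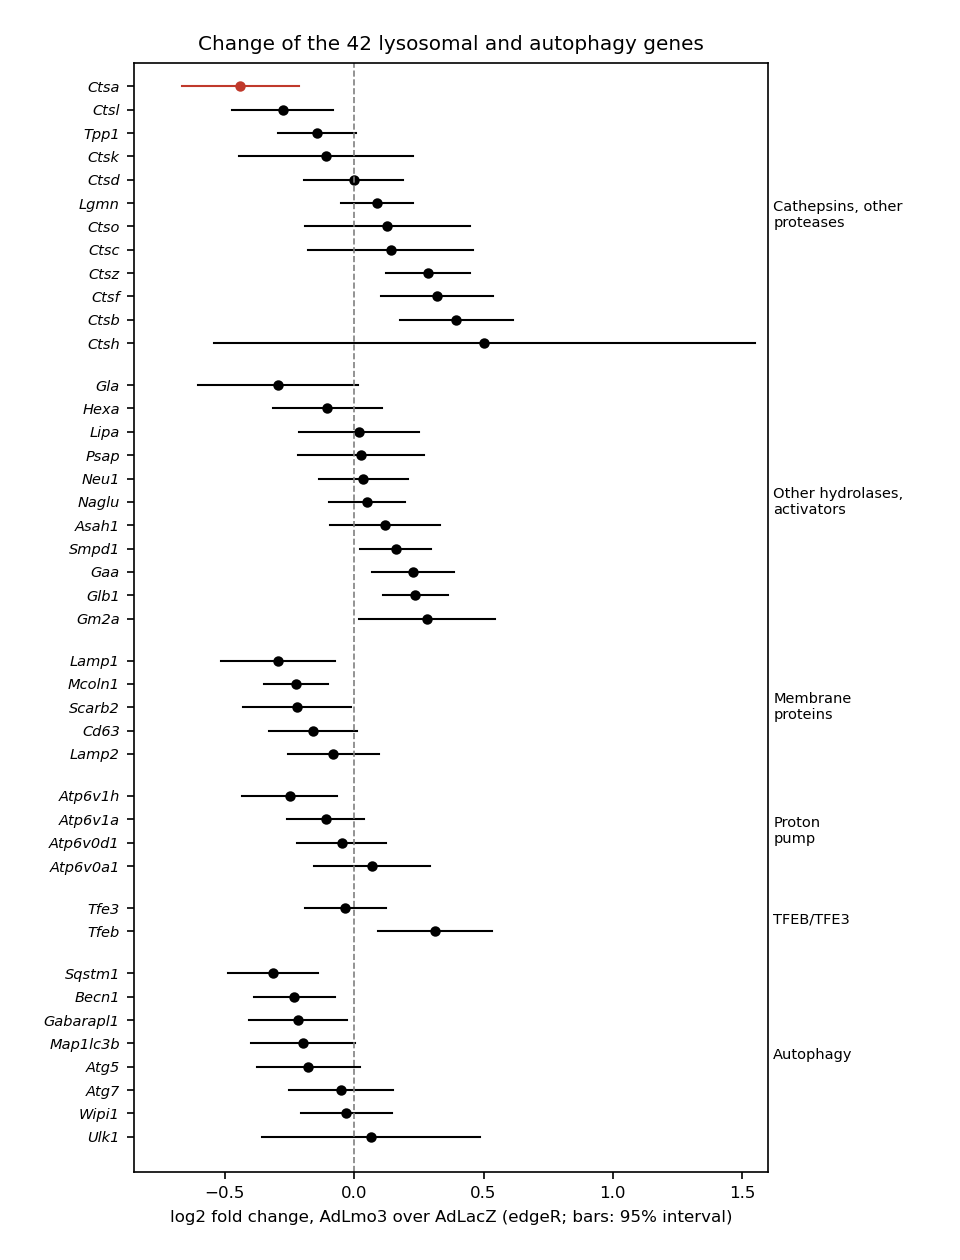
Log2 fold change of Ad*Lmo3* over AdLacZ for each of the 42 genes by role (points, edgeR) with 95% intervals (bars), where red marks an adjusted p under 0.05. *Ctsa* at -0.44 is the only red point, and the interval of *Ctsh*, the gene with the fewest counts, is the widest.

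Among the proteases, 1 of 12 passed the test in edgeR and in limma voom (*Ctsa*), beside 4.28% and 4.4% of all genes. DESeq2 called 4 proteases (*Ctsa*, *Ctsb*, *Ctsl* and *Ctsz*), beside 8.55%. The median log2 fold change was 0.11, and non-overlapping groups pointed in both directions. *Ctsa* lies on chromosome 2 of GRCm38 from 164832873 to 164841032 on the plus strand, and its product both cleaves peptides and protects β-galactosidase and neuraminidase in a complex. *Ctsa* had 366, 448 and 437 CPM in AdLacZ replicates 1, 2 and 3 and 315, 326 and 280.3 CPM in Ad*Lmo3* replicates 1, 2 and 3. All 3 Ad*Lmo3* libraries lay under the lowest AdLacZ library, which was replicate 1. *Ctsa* fell by 0.44 on the log2 scale (standard error, SE, 0.0986, adjusted p = 0.0480, edgeR), or by 26.3%. This call was marginal. It held without AdLacZ replicate 1 (adjusted p = 0.0333), and was lost without any other library (adjusted p from 0.0885 to 0.190, highest without AdLacZ replicate 3), with RLE size factors (adjusted p = 0.0506) and with a replicate block (adjusted p = 0.0609). Of the 75-base stretches of *Ctsa* transcripts, 9.25% also occur in other genes, mainly in *Pltp*, the phospholipid transfer protein gene that overlaps it on the opposite strand. *Pltp*, looked up for this overlap, was itself lower, with 253, 276 and 287 CPM in the AdLacZ and 170.3, 183 and 141 CPM in the Ad*Lmo3* libraries (log2 fold change -0.72, SE 0.104, adjusted p = 0.0115, edgeR). Whether the counting separated the strands is not given in the sources used here, and the part of *Pltp* reads in the *Ctsa* value was not tested.

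The genes of the enzymes that cathepsin A protects, *Glb1* (β-galactosidase) and *Neu1* (neuraminidase 1), had log2 fold changes of 0.24 and 0.04, neither of which passed the test in edgeR, while DESeq2 called *Glb1* (adjusted p = 0.0323). *Ctsh* had the largest fold change of the list at 0.50, but rested on 8 to 26 counts per library. It had 0.422, 0.333 and 0.324 CPM in the AdLacZ and 0.216, 0.706 and 0.629 CPM in the Ad*Lmo3* libraries. The groups overlapped, and the estimate (SE 0.455, adjusted p = 0.599, edgeR) allows a change in either direction. *Ctsd*, the most abundant protease per length, had 1168, 1014 and 1096 CPM in the AdLacZ and 1043, 1070.5 and 1159.8 CPM in the Ad*Lmo3* libraries. Its groups overlapped almost completely, with a log2 fold change of -0.00 and a 95% interval from -0.19 to 0.19 (adjusted p = 0.993, edgeR), and 31.3% of its stretches are shared with the overlapping model *Gm49369*.

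*Ctsb* and *Ctsl*, the abundant cysteine proteases of lysosomes, were chosen for full values after their values were seen. *Ctsb* had 950.2, 819 and 923 CPM in the AdLacZ and 1131, 1105 and 1304 CPM in the Ad*Lmo3* libraries. The groups did not overlap, yet the log2 fold change of 0.39 (SE 0.0950, adjusted p = 0.0603, edgeR) missed the threshold. DESeq2 and edgeR without the low-count filter called *Ctsb*, beside 8.55% and 3.65% of all genes. Of its stretches 11.8% occur in other genes, mainly *Fdft1* on the opposite strand. *Ctsl* had 517, 525 and 559.8 CPM in the AdLacZ and 469.7, 459 and 395 CPM in the Ad*Lmo3* libraries. These groups lay apart in the opposite direction (log2 fold change -0.28, SE 0.0850, adjusted p = 0.116, edgeR), with 24.6% of stretches shared, mostly with *Gm47123*. As a description within each library, the ratio of *Ctsb* to *Ctsl* counts was 1.84, 1.56 and 1.65 in AdLacZ and 2.41, 2.41 and 3.30 in Ad*Lmo3* replicates 1, 2 and 3. A ratio within a library does not depend on the scaling, and shows unequal levels without saying which gene differed. The other proteases included *Ctsz* (carboxypeptidase cathepsin X, 0.28) and *Ctsf* (0.32) with Ad*Lmo3* libraries above AdLacZ, and *Tpp1* (tripeptidyl peptidase, -0.14) with Ad*Lmo3* libraries below. For *Ctsc* (0.14), *Ctso* (0.13), *Lgmn* (legumain, which processes other cathepsins, 0.09) and *Ctsk* (the collagen-degrading cathepsin K, -0.11) the groups overlapped. The adjusted p of these 7 genes was at least 0.0671 (*Ctsz*) in edgeR, while DESeq2 called *Ctsz* (adjusted p = 0.0124).

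**Figure D3:**
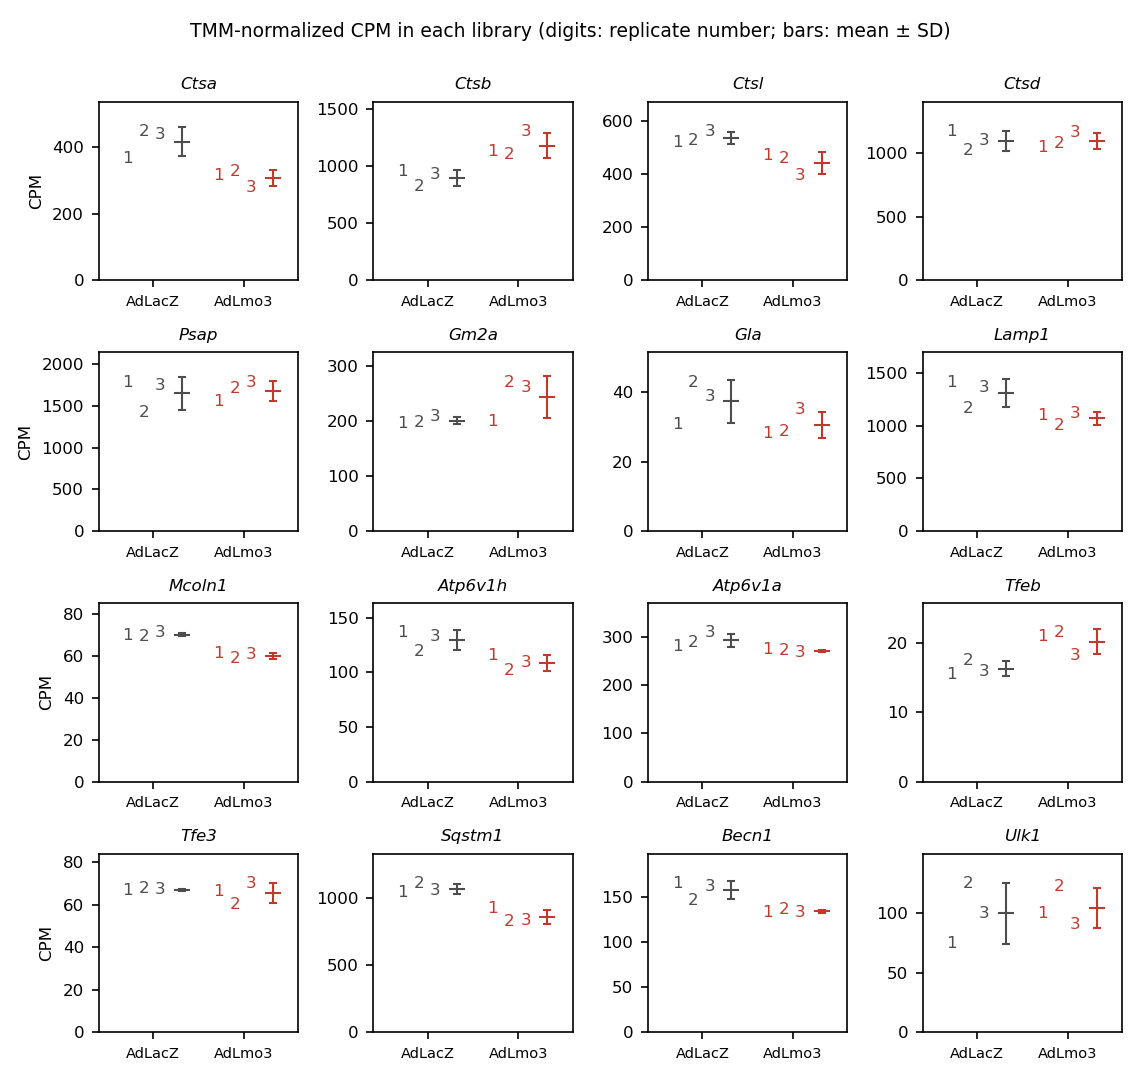
TMM-normalized CPM of 16 of the genes in each library, where a digit is the replicate number and bars give the mean ± SD of AdLacZ (grey) and Ad*Lmo3* (red), on axes that start at 0. *Ctsa* digits of Ad*Lmo3* all lie under those of AdLacZ (highest 326 against lowest 366 CPM), while those of *Psap*, *Ctsd*, *Tfe3* and *Ulk1* overlap.

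None of the 11 other hydrolases and activators passed the test in edgeR, beside 4.28% of all tested genes. An unadjusted p under 0.05 was reached by 4 of them, beside 20.6%, and DESeq2 called 2, *Gaa* and *Glb1*, beside 8.55%. Their median log2 fold change was 0.05, and 9 of 11 values were above 0, although only 5 were when library totals replaced the TMM factors. *Psap* had 1783, 1425 and 1743 CPM in the AdLacZ and 1556, 1704 and 1786 CPM in the Ad*Lmo3* libraries. The groups overlapped over most of their range (log2 fold change 0.03, SE 0.106, adjusted p = 0.922, edgeR). *Gla* (α-galactosidase A) had 30.7, 42.9 and 38.7 CPM in the AdLacZ and 28.2, 28.6 and 34.9 CPM in the Ad*Lmo3* libraries. Here AdLacZ replicate 1 fell among the Ad*Lmo3* libraries, and the log2 fold change was -0.30 (SE 0.135, adjusted p = 0.266, edgeR). *Gm2a*, the activator needed to degrade ganglioside GM2, had 196, 198 and 209 CPM in the AdLacZ and 199.7, 271 and 262 CPM in the Ad*Lmo3* libraries. Ad*Lmo3* replicate 1 lay within the AdLacZ range and the other 2 well above it, so that the log2 fold change of 0.28 (adjusted p = 0.209, edgeR) became 0.41 and passed the test (adjusted p = 0.0297) without that library.

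*Glb1*, *Gaa* and *Smpd1* had Ad*Lmo3* libraries entirely above AdLacZ. *Glb1*, chosen after its values were seen, had 54.2, 51.7 and 52.8 CPM in the AdLacZ and 61.4, 61.7 and 63.8 CPM in the Ad*Lmo3* libraries. Its replicates were tight, and its log2 fold change of 0.24 (SE 0.0550, adjusted p = 0.0553, edgeR) came closest to the threshold after *Ctsa*. *Gaa* (acid α-glucosidase, which degrades lysosomal glycogen) had a log2 fold change of 0.23, and *Smpd1* (acid sphingomyelinase) had 0.16. *Lipa* (lysosomal acid lipase, 0.02), *Naglu* (0.05), *Neu1* (0.04), *Asah1* (acid ceramidase, 0.12) and *Hexa* (a β-hexosaminidase subunit, -0.10) had overlapping groups. *Lipa*, the enzyme that hydrolyses cholesteryl esters and triglycerides in lysosomes, had a 95% interval from -0.22 to 0.25.

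All 5 membrane proteins had log2 fold changes below 0 under every scaling and test tried, with a median of -0.22. None passed the test in edgeR with TMM factors, beside 4.28% of all tested genes. An unadjusted p under 0.05 was reached by 3 of the 5, beside 20.6%. DESeq2 called *Lamp1* and *Mcoln1*, beside 8.55% of all genes. *Lamp1*, whose promoter held 4 copies of CACGTG, had 1415, 1160.0 and 1361 CPM in the AdLacZ and 1094, 999 and 1119 CPM in the Ad*Lmo3* libraries. The highest Ad*Lmo3* library lay just under AdLacZ replicate 2 (log2 fold change -0.29, SE 0.0958, adjusted p = 0.131, edgeR). *Mcoln1*, the gene of the calcium channel TRPML1, had 70.1, 69.6 and 71.1 CPM in the AdLacZ and 61.0, 58.7 and 60.6 CPM in the Ad*Lmo3* libraries. These were among the tightest replicates of the list and the groups lay well apart, with a log2 fold change of -0.23 (SE 0.0538, adjusted p = 0.0589, edgeR) and an adjusted p of 0.0243 with library totals. *Cd63*, a tetraspanin of late endosomes (-0.16), also had Ad*Lmo3* libraries below AdLacZ, whereas *Scarb2*, the receptor that carries glucocerebrosidase to lysosomes (-0.22), and *Lamp2* (-0.08) overlapped.

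None of the 4 proton pump genes passed the test in edgeR, beside 4.28% of all tested genes. An unadjusted p under 0.05 was reached by 1, beside 20.6%, and DESeq2 called 0, beside 8.55%. *Atp6v1h*, a regulatory subunit of the cytosolic V1 sector, had 136, 119 and 133 CPM in the AdLacZ and 116, 101 and 109 CPM in the Ad*Lmo3* libraries. The groups were separated by a narrow gap (log2 fold change -0.25, SE 0.0798, adjusted p = 0.128, edgeR). *Atp6v1a*, the catalytic subunit that hydrolyses ATP, had 281, 289 and 309 CPM in the AdLacZ and 274, 271 and 269 CPM in the Ad*Lmo3* libraries. It too lay slightly lower in every Ad*Lmo3* library, with a log2 fold change of -0.11 and a 95% interval from -0.26 to 0.04 (adjusted p = 0.393, edgeR). The membrane-sector subunits *Atp6v0d1* (-0.05) and *Atp6v0a1* (0.07, and -0.00450 with library totals) had overlapping groups.

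Of the 2 transcription factors, neither passed the test in edgeR, beside 4.28% of all tested genes. An unadjusted p under 0.05 was reached by 1, beside 20.6%, and DESeq2 called 0, beside 8.55%. *Tfeb* had 15.5, 17.5 and 15.8 CPM in the AdLacZ and 20.9, 21.5 and 18.2 CPM in the Ad*Lmo3* libraries. All Ad*Lmo3* libraries were above all AdLacZ libraries (log2 fold change 0.31, SE 0.0956, adjusted p = 0.115, edgeR). *Tfe3* had 66.7, 67.5 and 67.0 CPM in the AdLacZ and 66.4, 60.3 and 70.0 CPM in the Ad*Lmo3* libraries. The AdLacZ values fell inside the Ad*Lmo3* range, with a log2 fold change of -0.03 (SE 0.0682, adjusted p = 0.832, edgeR). These counts measure transcripts, whereas both factors are known to be controlled largely by their movement into the nucleus.

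Among the 8 autophagy genes, 7 had log2 fold changes below 0, with a median of -0.19. With library totals all 8 were below 0, where the median of all tested genes shifted by -0.07 as well. None passed the test in edgeR with TMM factors, beside 4.28% of all tested genes. An unadjusted p under 0.05 was reached by 3 of the 8, beside 20.6%. DESeq2 called *Sqstm1* and *Becn1*, beside 8.55% of all genes. *Sqstm1* encodes p62, a receptor that ties ubiquitinated cargo to the autophagosome. It had 1037, 1106 and 1058 CPM in the AdLacZ and 919, 824 and 830.0 CPM in the Ad*Lmo3* libraries. The gap between the groups exceeded the range within either, and the log2 fold change was -0.32 (SE 0.0758, adjusted p = 0.0601, edgeR). It passed the threshold in limma voom (adjusted p = 0.0471) but not in edgeR with TMM factors. Of *Sqstm1* stretches 14.6% are shared, mainly with *Mrnip*. *Becn1*, the beclin 1 subunit of the lipid kinase complex that starts autophagosomes, had 164, 146 and 161 CPM in the AdLacZ and 133, 136 and 133 CPM in the Ad*Lmo3* libraries. The Ad*Lmo3* libraries were nearly equal and all below AdLacZ (log2 fold change -0.23, SE 0.0680, adjusted p = 0.102, edgeR). With library totals in edgeR both *Sqstm1* and *Becn1* passed, beside 6.01% of all tested genes. Of *Becn1* stretches 33.6% also occur in other genes, mainly *Cntd1*, which itself reached at most 0.407 CPM.

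The ubiquitin-like protein genes *Gabarapl1* (-0.22, groups apart) and *Map1lc3b* (LC3B, -0.20, groups overlapping) and the conjugation genes *Atg5* (-0.18) and *Atg7* (-0.05) followed. Of *Gabarapl1* stretches 20.5% also occur in other genes, mainly *1700101I11Rik* on the opposite strand, which itself reached at most 0.442 CPM. *Wipi1*, a phosphoinositide-binding protein of forming autophagosomes, had -0.03. *Ulk1*, the kinase that initiates autophagy and whose full values were chosen after they were seen, was the most variable of the 8. It had 74.1, 124 and 99.6 CPM in the AdLacZ and 99.5, 122 and 90.0 CPM in the Ad*Lmo3* libraries. The Ad*Lmo3* libraries fell inside the AdLacZ range, and the 95% interval of its log2 fold change of 0.06 ran from -0.36 to 0.49.

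Set against the promoter matches, the 15 genes with CACGTG had a median log2 fold change of -0.05, with 5 above and 10 below 0. The 22 genes with a window but no CACGTG had a median of -0.01, with 11 above and 11 below 0. The gene called by edgeR, *Ctsa*, was among the 15. DESeq2 called 6 of the 15 (*Ctsa*, *Ctsl*, *Gaa* and *Glb1* with *Lamp1* and *Mcoln1*) and 2 of the 22 (*Ctsz* and *Sqstm1*), a difference that was not tested. Of all genes it called 8.55%. It also called *Ctsb* and *Becn1*, which had no window and are in neither class. Among the genes with several copies, *Ctsd* stood at -0.00. *Lamp1*, *Mcoln1* and *Gla* ran from -0.30 to -0.23 without passing the test in edgeR with TMM factors. DESeq2 called *Lamp1* (adjusted p = 0.0319) and *Mcoln1* (adjusted p = 0.0396).

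For context, 174 further genes of the pathway were read from the same fit, grouped by role, and 155 of them had enough counts. Of these, 6 passed the test in edgeR (3.87%, against 4.28% of all genes), 5 higher and 1 lower, with a median log2 fold change of 0.01. With library totals in place of TMM factors 13 passed, beside 6.01% of all tested genes, and the split turned to 3 higher and 10 lower. The split of all called genes likewise turned from 346 higher and 201 lower to 266 and 501. DESeq2 called 8 of the further genes as higher and 5 as lower, beside 671 and 433 of all genes. An unadjusted p under 0.05 was reached by 40 of the 155 genes (25.8%), beside 20.6% of all tested genes. Groups did not overlap for 32.9% of the 155, beside 26.5%. For the 42 genes these shares were 40.5% and 42.9%. The further hydrolases held 3 of the 6 edgeR calls, all higher, of 33 tested. *Naaa*, the acid amidase that degrades N-acylethanolamines, had 182, 179 and 208 CPM in the AdLacZ and 240.2, 304 and 333 CPM in the Ad*Lmo3* libraries, and rose by 0.63 on the log2 scale (SE 0.123, adjusted p = 0.0316, edgeR). *Manba* (β-mannosidase) rose from 15.8 ± 1.35 to 21.8 ± 2.05 CPM, with a log2 fold change of 0.46 (adjusted p = 0.0471, edgeR). *Arsb* (arylsulfatase B, which desulfates dermatan and chondroitin sulfate) rose from 53.8 ± 3.21 to 66.6 ± 3.04 CPM, with a log2 fold change of 0.31 (adjusted p = 0.0453, edgeR). For each of these 3 enzymes every Ad*Lmo3* library was above every AdLacZ library.

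Of 33 further membrane genes, *Abcb9*, a lysosomal peptide transporter, rose from 19.0 ± 0.665 to 25.5 ± 0.807 CPM, with a log2 fold change of 0.43 (adjusted p = 0.0179, edgeR). Of 15 further pump genes, *Atp6v0e2*, a small subunit of the membrane sector, had 13.2, 15.2 and 16.8 CPM in the AdLacZ and 22.1, 22.9 and 25.9 CPM in the Ad*Lmo3* libraries, a rise of 0.65 on the log2 scale (SE 0.111, adjusted p = 0.0190, edgeR). Of the 15 pump genes 11 had log2 fold changes below 0, and their median was -0.10. Groups did not overlap for 3 of them as higher and 5 as lower, beside 13.3% and 13.2% of all tested genes. DESeq2 called 3 (*Atp6v0e2*, *Atp6v1b2* and *Atp6v1g1*), beside 8.55% of all genes. The further membrane genes had 14 above and 19 below 0 (median -0.02). The further autophagy genes had 22 above and 21 below 0 (median 0.0002), and the further hydrolases 24 above and 9 below (median 0.07). The 19 genes not tested had at most 12 counts in a library, among them *Atp6v0c*, which encodes the proteolipid of the proton channel and was listed at 0 counts in all 6 libraries (named after its values were seen, cause not tested). Of 43 further autophagy genes, *Atg13*, a subunit of the ULK1 kinase complex, fell by 0.33 on the log2 scale, from 119 ± 5.57 to 95.1 ± 6.44 CPM (adjusted p = 0.0480, edgeR). That call was lost with RLE size factors (adjusted p = 0.0513), with a replicate block (adjusted p = 0.0594) and with any 1 library left out (adjusted p from 0.0849 to 0.191). No gene passed among 4 other proteases, 11 further regulators, 12 delivery genes and 4 protease inhibitors, where the largest log2 fold changes were those of *Cpq* (a carboxypeptidase, 0.20), *Foxo1* (0.26), *Sort1* (the sorting receptor sortilin, 0.51, adjusted p = 0.0731, edgeR) and *Ctla2b* (0.36). In these 4 groups, 5 genes had an unadjusted p under 0.05 in edgeR, beside 20.6% of all tested genes. By group, in the same order, they were 1 of 4, 1 of 11, 2 of 12 and 1 of 4. DESeq2 called 1 (*Sort1*), beside 8.55% of all genes, and limma voom called 0, beside 4.4%. The number of calls varied with the library left out, as did the share of all tested genes. Without AdLacZ replicate 2, AdLacZ replicate 3 or Ad*Lmo3* replicate 2, 0 passed, beside 1.85%, 0.596% and 1.18% of all genes. Without AdLacZ replicate 1 or Ad*Lmo3* replicate 3, 2 passed (*Abcb9* and *Atp6v0e2*), beside 2.2% and 2.24%. Without Ad*Lmo3* replicate 1, 6 passed as higher and 1 as lower, beside 3.89%.

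**Figure D4:**
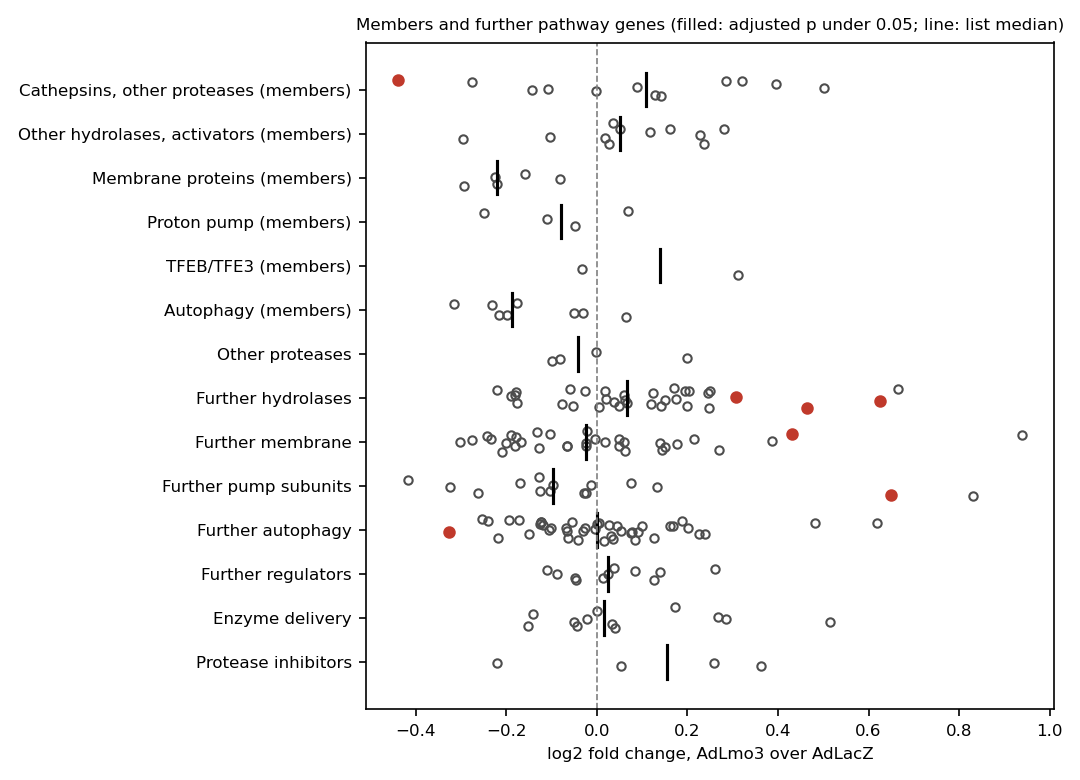
Log2 fold changes of the 42 genes and of the 155 tested further pathway genes (open circles), by role, with filled red circles for an adjusted p under 0.05 in edgeR and vertical lines for list medians. Most circles lie within 0.4 of 0, and the 7 red circles are *Ctsa* and *Atg13* below 0 and *Arsb*, *Manba*, *Naaa*, *Abcb9* and *Atp6v0e2* above 0.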

How the data were processed

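The authors mapped 75-base single reads (NEBNext Ultra II RNA libraries, Illumina NextSeq500) and deposited whole-number counts per gene symbol, 1 table per library. The submitters' processing notes name bcl2fastq, STAR 2.5.0b, DESeq2 1.6.3 and the build mm10, which is GRCm38. The counting program, its strand setting and the annotation are not given in the sources used here. Entries for reads given to no gene (7.15% to 8.94%) or to several genes (0.476% to 0.543%) were left out of totals and tests. All 6 libraries were used, grouped by the virus in the labels.

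The quasi-likelihood fit of edgeR 4.0.16 under R 4.3.3 was used (genes kept by filterByExpr, TMM factors, no block), with p-values adjusted over all 12766 tested genes. CPM are TMM-normalized, the SD is over 3 libraries, and the standard error is the fold change divided by the root of the F statistic. An exact two-sided permutation of 3 against 3 libraries cannot go under 0.1, so none was used. No replicate pair was alike within sampling noise (chi-square per degree of freedom 22.9 to 61.6). Levels per kb used the summed exons of GENCODE vM21 (GRCm38), which also gave positions and the share of 75-base stretches found in other genes. Further pathway genes were matched by symbol, *Pip4p1* as Tmem55b and *Rubcn* as 1700021K19Rik. Promoters came from RefSeq (GRCm38.p6). The plots used matplotlib 3.10.9.

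The 42 genes, the further lists and the promoter motifs were chosen with earlier results of these data known. Library values are given for genes past the threshold and, in each role group, for the 2 largest fold changes and the highest mean CPM. Of each further list, up to 4 genes past the threshold, or otherwise the largest fold change, are named. Others given in full are marked as chosen after their values were seen. Alternatives were DESeq2 1.42.0, limma 3.58.1 (voom), RLE factors, library totals, no low-count filter, CPM above 1 in at least 3 libraries, a replicate block and leaving out each library. The counts of genes with non-overlapping groups under other scalings were added after seeing the data.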

Additional observations from a re-analysis of the deposited data

How the results depend on the processing

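The number of the 42 genes that passed was 1 with edgeR and 10 with DESeq2. Those 10 were *Ctsa*, *Ctsb*, *Ctsl*, *Ctsz*, *Gaa*, *Glb1*, *Lamp1*, *Mcoln1*, *Sqstm1* and *Becn1*. The number was 2 with limma voom, 0 with RLE factors and 4 with library totals. Without the low-count filter it was 2 (*Ctsa* and *Ctsb*), and with a library left out 0 to 1. Over all genes the count was 547 with edgeR (4.28%), 1104 with DESeq2 (8.55%), 562 with limma voom (4.4%) and 542 with RLE factors (4.25%). With library totals it was 767 (6.01%), and without the low-count filter 659 (3.65%). With a library left out it was 77 to 501 (0.596% to 3.89%). For the further pathway genes it was 6, against 13 with DESeq2, 13 with library totals and 0 to 7 with a library left out. The median log2 fold change of the 42 genes was -0.11 with library totals, where the median of all genes shifted by -0.07 as well. The causes were not tested.

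Under the alternatives, 13 genes near 0 changed sign at least once. *Ctsd* was 0.00013 with DESeq2 and 5.6e-05 with RLE factors. With library totals *Lipa* was -0.0545, *Naglu* -0.0231, *Neu1* -0.0365, *Psap* -0.0476, *Atp6v0a1* -0.00450 and *Ulk1* -0.00597. With a library left out, log2 fold changes ran from -0.0529 to 0.0482 for *Ctsd*, -0.21 to 0.0574 for *Ctsk*, -0.0243 to 0.22 for *Ctso*, -0.0772 to 0.10 for *Lipa*, -0.0191 to 0.0833 for *Neu1*, -0.0676 to 0.0861 for *Psap*, -0.0849 to 0.00237 for *Atp6v0d1*, -0.0197 to 0.13 for *Atp6v0a1*, -0.0827 to 0.0244 for *Tfe3*, -0.11 to 0.26 for *Ulk1*, -0.11 to 0.0421 for *Atg7* and -0.0882 to 0.0235 for *Wipi1*. The remaining 29 genes kept their direction.

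With a replicate block, 0 of the 42 genes, 4 further pathway genes and 498 of all genes passed. Across genes, the residuals of the libraries that share number 1, 2 or 3 had correlations of 0.0508, 0.225 and 0.234. Their mean was 0.170, against -0.0845 for libraries with unlike numbers. The residuals of a gene sum to 0 within each group, which ties these means to each other. The value for unlike numbers is therefore no separate comparison. Replicates 2 and 3 correlated best with their own number, and replicate 1 did not. The main test did not use the numbers to pair the libraries, and whether libraries of a number share an effect was not tested. Depth limited *Ctsh*, at 8 to 26 counts, whose log2 fold change ran from 0.17 to 0.90 with a library left out.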
